A study of Mus musculus with 2 samples.

Results

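Heat shock proteins, their co-chaperones and the heat shock factors were read in liver tumour tissue of wild-type and of HLF-deficient mice, on 1 array for each genotype. Below, "the wild-type tumour" and "the HLF-deficient tumour" stand for the tissue behind each array. HLF, hepatic leukemia factor, is a transcription factor of the PAR bZIP family. A gene was a member when a probe set named it alone and its symbol belonged to the Hspa, Hspb, Hspd, Hspe, Hsph or Hsp90 genes, to Dnaja, Dnajb or Dnajc, to Bag or to Hsf, with Hspbp1 added. This gave 82 genes of the 19938 with a probe set of their own. Each gene was read from the probe set with the highest mean over both arrays, so the measured values took part in the choice, and the members were taken up with earlier results of these data known. All values below are therefore descriptions. The coding genes Hspa1b, Hsp90ab1 and Hsf1 fit the naming pattern but had no probe set naming them alone here.

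The tumours were hepatocellular carcinomas induced with DEN (diethylnitrosamine, a chemical liver carcinogen), which both groups received. The group called WT holds 1 array and the group called HLF-deficient holds 1 array. Strain, sex, age, the time after DEN and the number of animals or nodules behind each RNA are not given in the sources used here, nor is the part of Hlf that was removed. Values are log2 RMA expression (background-corrected, normalized and summarised by the authors), and every difference is HLF-deficient minus wild-type on the log2 scale. With 1 array a genotype no difference could be tested, and whether any exceeds the spread between tumours is not known.

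Heat shock proteins are molecular chaperones that bind unfolded proteins and help them fold, move between compartments or reach degradation. Hsp70 proteins work in cycles of ATP hydrolysis that J proteins (Dnaj genes) start and that nucleotide exchange factors such as the Hsp110 and BAG proteins end, while Hsp90 takes over client proteins such as kinases and steroid receptors. Some members are made at all times, and others are induced when proteins unfold in the cytosol, through heat shock factor HSF1, which binds repeated nGAAn units in promoters; the endoplasmic reticulum (ER) and mitochondria have chaperones of their own, and those of the ER answer mainly to the unfolded protein response. In liver these proteins serve a tissue with a high rate of protein secretion, and Hsp70 and Hsp27 are often abundant in hepatocellular carcinoma.

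The promoters of 5 members are printed below, with matches to the heat shock element of the cytosolic response and to the ER stress element marked. Each line gives the 250 bases before the annotated start in the gene's own direction, 5′ to 3′, from RefSeq on build GRCm38.p6. Capitals mark 2-unit heat shock elements (GAANNTTC or TTCNNGAA) in Hspa1a and Hspb1, overlapping 3-unit elements (GAA, TTC and GAA, each parted by 2 bases of any kind, on either strand) in Hspe1, and the ER stress element (CCAAT and CCACG parted by 9 bases of any kind, on either strand) in Hspa5. Dnajb1 is shown from the first of its 2 annotated starts and holds none of these letters in this window.
Hspa1a, chr17:34972157-34972406, minus strand: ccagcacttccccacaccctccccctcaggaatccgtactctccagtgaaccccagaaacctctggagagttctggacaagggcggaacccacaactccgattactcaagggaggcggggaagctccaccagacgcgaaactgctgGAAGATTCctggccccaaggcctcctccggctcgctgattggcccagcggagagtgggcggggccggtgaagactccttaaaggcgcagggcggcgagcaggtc
Hspb1, chr5:135887669-135887918, plus strand: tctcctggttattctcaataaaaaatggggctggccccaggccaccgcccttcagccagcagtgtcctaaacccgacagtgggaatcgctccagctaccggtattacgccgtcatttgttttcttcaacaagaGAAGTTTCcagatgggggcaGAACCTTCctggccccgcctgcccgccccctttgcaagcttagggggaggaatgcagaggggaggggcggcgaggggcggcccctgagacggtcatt
Dnajb1, chr8:83607925-83608174, plus strand: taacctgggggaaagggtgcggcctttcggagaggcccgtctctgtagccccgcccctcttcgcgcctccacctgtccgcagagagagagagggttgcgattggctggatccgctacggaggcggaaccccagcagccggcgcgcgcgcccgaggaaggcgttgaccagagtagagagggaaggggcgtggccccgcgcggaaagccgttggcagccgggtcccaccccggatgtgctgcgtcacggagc
Hspe1, chr1:55087898-55088147, plus strand: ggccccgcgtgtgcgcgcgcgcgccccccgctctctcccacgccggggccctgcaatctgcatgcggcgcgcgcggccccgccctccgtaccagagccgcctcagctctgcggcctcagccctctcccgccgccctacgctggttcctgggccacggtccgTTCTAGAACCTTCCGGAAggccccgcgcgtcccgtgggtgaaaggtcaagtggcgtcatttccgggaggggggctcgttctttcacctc
Hspa5, chr2:34771840-34772089, plus strand: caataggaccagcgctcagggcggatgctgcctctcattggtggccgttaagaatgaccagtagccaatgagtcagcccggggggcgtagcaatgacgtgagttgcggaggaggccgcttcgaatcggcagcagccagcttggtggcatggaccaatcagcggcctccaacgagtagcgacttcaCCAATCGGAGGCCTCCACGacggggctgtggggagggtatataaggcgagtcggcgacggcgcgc

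Promoter windows of 300 bases, 250 before and 50 after the start, were matched for 67 of the 82 members. A 2-unit heat shock element lay in the windows of 7 of 8 inducible cytosolic members, 1 of 11 ER members, 2 of 6 mitochondrial members and 17 of 67 members in all, against 16.97% of the 27025 genes of the table. The 3-unit element, which always holds a 2-unit one, lay in 4 members (Hsph1, Hspd1, Hspe1 and Dnajb6) and in 0.662% of all genes. The ER stress element was found in Hspa5, Hsp90b1 and Dnajc3, all of the ER class, and in 0.137% of all genes. A match describes the letters only, and genes with several annotated starts had more windows to match in.

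Of the 82 members, 73 reached the floor of expression on at least 1 array and were compared. The floor, a log2 value of 2.98, was the 95th percentile of 1248 probe sets for olfactory, vomeronasal and taste receptors, which liver does not use. The 9 members below it on both arrays were Hspa1l, Bag2, Hsf3, Hsf5, Dnajb3, Dnajb7, Dnajc27, Dnajc5b and Dnajc5g. Hepatocyte markers were well above the floor on both arrays: the 10 measured ones, Alb among them, had differences between -0.15 and 0.15, and their summed linear signal was 39678 in the wild-type tumour against 39771 in the HLF-deficient one. Hlf itself was at 5.13 in the wild-type tumour against 3.79 in the HLF-deficient one, the direction that the genotype labels give.

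In the HLF-deficient tumour 5 members exceeded the wild-type level by 2-fold or more, namely Hspa1a, Hspb1, Hsph1, Dnajb1 and Dnajc12. These are 5 of 73 compared members, where 1.5% of all 14575 compared genes passed the same rule; 0 of 73 were lower by 2-fold, where 0.364% of all genes were. At a rule of 1.5-fold, 9 members were higher, against 6.37% of all genes, and 0 were lower, against 3.11%. The median difference was 0.16 over the members and 0.07 over all compared genes. Differences above 0 were found for 50 of the 73 members and for 58.2% of all genes.

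**Figure D1:**
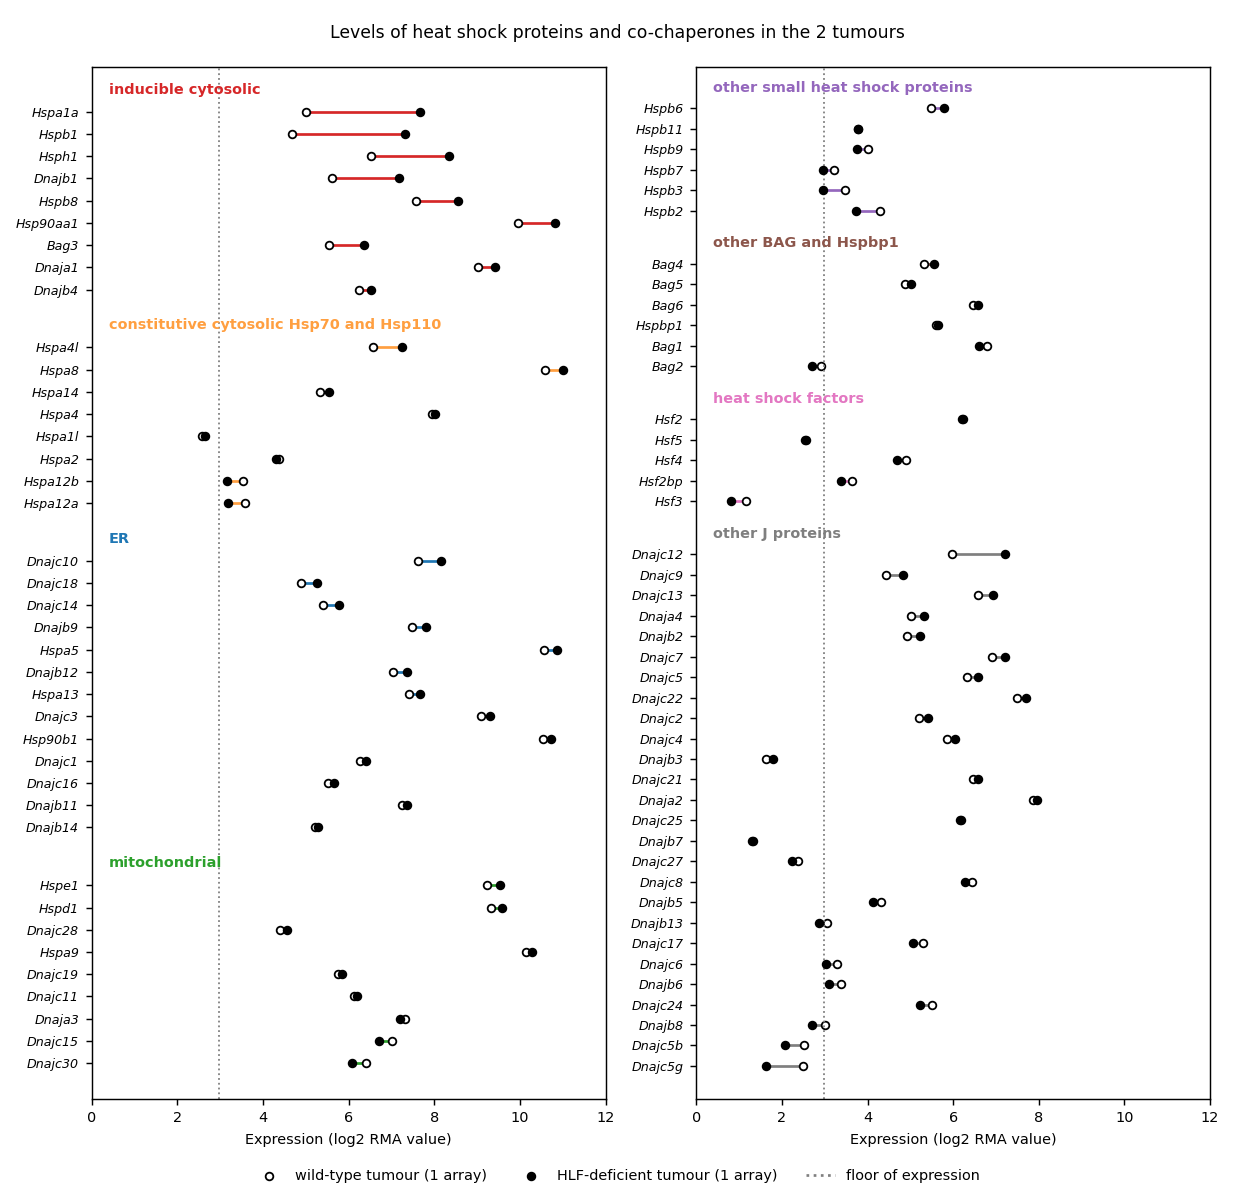
Log2 RMA level of all 82 members in the wild-type tumour (open circles) and the HLF-deficient tumour (filled circles), 1 array each, grouped by class and ordered by difference; the dotted line is the floor of 2.98. The long connecting lines belong to Hspa1a, Hspb1, Hsph1, Dnajb1 and Dnajc12, and most other pairs of circles nearly touch.

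The inducible cytosolic chaperones carried the large differences. All 9 measured members of this class were above the floor on both arrays. Each was higher in the HLF-deficient tumour, as were 58.2% of all compared genes. By 2-fold or more 4 of them were higher, and by 1.5-fold or more 7, where 1.5% and 6.37% of all compared genes were. The median difference was 0.99, beside 0.07 over all compared genes. The class had been named together with the rule that chose the members, so this direction is no independent evidence.

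Hspa1a, the stress-inducible cytosolic Hsp70 and one of the promoters printed above with a 2-unit element, stood at 5.003 on the log2 scale in the wild-type tumour against 7.66 in the HLF-deficient one. The difference of 2.66, or 6.30-fold, ranked 5th from the top of the 14575 compared genes. Hspa1a and Hspa1b lie next to each other on chromosome 17 with Hspa1l, and their 250-base upstream windows differ at 3 positions. The copies are nearly identical in sequence, so the Hspa1a probe set may also read Hspa1b. Hspa1l, the third gene of this cluster, stayed below the floor in both tumours, at 2.56 and 2.64.

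Hspb1 (Hsp27), a small heat shock protein that holds unfolded proteins without ATP, was at 4.66 in the wild-type tumour against 7.31 in the HLF-deficient one. This is 6.25-fold, next to Hspa1a in rank. Its second probe set gave 4.51 and 7.25, a difference of 2.74 beside the 2.64 of the first, so both readings of this gene lie on the same side.

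Among partners of inducible Hsp70, Hsph1 and Dnajb1 differed most, while the BAG proteins and the other J proteins given below differed less. Hsph1 (Hsp105), the Hsp110-type nucleotide exchange factor of Hsp70, was at 6.52 and 8.34, 3.52-fold higher in the HLF-deficient tumour. Dnajb1 (Hsp40), the J protein that pairs with inducible Hsp70, was at 5.62 and 7.18, 2.96-fold higher. With Hspa1a these form a set of chaperone, J protein and exchange factor in which each gene differed by more than 1.5 on the log2 scale.

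The remaining inducible members fell short of 2-fold. Hspb8, a small heat shock protein that works with Bag3 in selective autophagy of damaged proteins, was at 7.56 and 8.55, or 1.98-fold, and Bag3 itself was at 5.54 and 6.35, or 1.76-fold. Hsp90aa1, the inducible cytosolic Hsp90, was at 9.94 and 10.81, or 1.83-fold, and its 3 probe sets gave differences from 0.85 to 0.88. Dnaja1, a J protein of the farnesylated type, and Dnajb4 had the smallest differences of the class, 0.39 and 0.27. A probe set that names Dnaja1 together with the microRNA gene Mir207, and so cannot be assigned to either, gave a difference of the other sign, -0.34, from 6.83 to 6.49. The members nearest to the 2-fold rule were thus Dnajc12 and Dnajb1 on its far side, with 1.25 and 1.57, and Hspb8 and Hsp90aa1 on its near side, with 0.99 and 0.87.

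**Figure D2:**
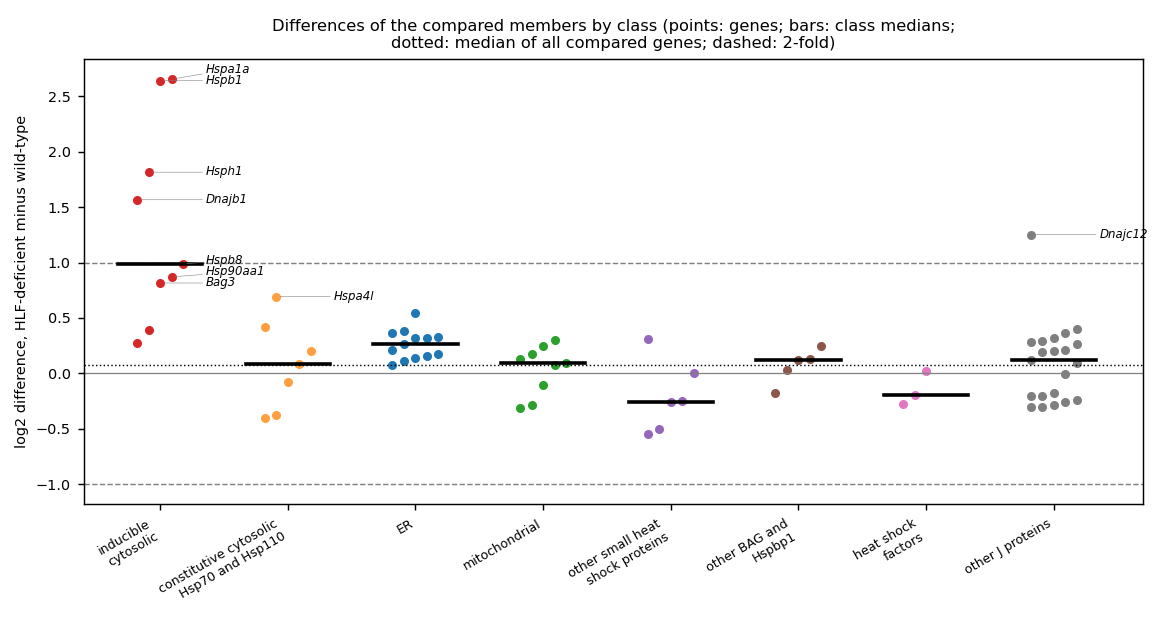
Differences on the log2 scale, HLF-deficient minus wild-type, for the 73 compared members by class; points are genes, bars class medians, the dotted line the median of all compared genes (0.07) and dashed lines 2-fold. The inducible cytosolic median of 0.99 lies apart from the ER median of 0.26 and the mitochondrial median of 0.09.

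ER chaperones showed small differences of 1 sign in the deposited values. All 13 were positive, where 58.2% of all compared genes were, with a median of 0.26. The range ran from 0.07 for Dnajb14 to 0.55 for Dnajc10. At 1.5-fold 0 of 13 passed, where 6.37% of all genes were higher and 3.11% lower. A 0 in so short a list is near those shares. The sign depended on scaling: 9 of 13 were positive after quantile normalization and 10 of 13 after removal of a loess trend of difference on level, with class medians of 0.10 and 0.11. Hspa5 (BiP), the Hsp70 of the ER whose printed promoter holds the ER stress element, was at 10.55 in the wild-type tumour against 10.87 in the HLF-deficient one, a difference of 0.32. Hsp90b1 (GRP94), the ER Hsp90, was at 10.54 and 10.72, a difference of 0.17.

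The J proteins of the ER lay around these values. Dnajc10 (ERdj5), a reductase that helps clear misfolded proteins, was at 7.61 and 8.16 and Dnajc18, a J protein of the ER membrane, at 4.88 and 5.26. Dnajb9 (ERdj4) and Dnajc3 (p58IPK), both products of the unfolded protein response, differed by 0.33 and 0.21. Dnajb11 (ERdj3), a BiP co-chaperone, differed by 0.11 and Dnajb14 by 0.07, and both turned slightly negative after quantile or loess normalization.

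Mitochondrial chaperones were nearly level between the tumours. Of 9 members 6 were positive as deposited, where 58.2% of all compared genes were, and 4 after quantile or loess normalization. The median of 0.09 became -0.10 and -0.06 under those scalings. At 1.5-fold 0 passed in either direction, a count near the all-gene shares of 6.37% higher and 3.11% lower. Hspa9 (mortalin), the mitochondrial Hsp70, was at 10.15 in the wild-type tumour against 10.28 in the HLF-deficient one. Hspd1 (Hsp60) and Hspe1 (Hsp10), which form the folding chamber of the matrix, were at 9.32 and 9.57 and at 9.24 and 9.54. They are neighbouring genes read in opposite directions, and the overlapping 3-unit heat shock elements in capitals above, at chr1:55088059-55088076, lie in the windows of both.

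Hspd1 and Hspe1 differed by 0.25 and 0.30, and by 0.38 and 0.26 on their second probe sets. Hsph1, which also holds a 3-unit element, differed by 1.82. Compared members outside the inducible class that had a window were split by the 2-unit element. The 7 with one had a median difference of 0.30 and ranged from -0.50 (Hspb3) to 0.55 (Dnajc10). The 44 without one had a median of 0.09. Of those 7, Hspb3 was below the floor on the HLF-deficient array, and Dnajb6 was read from a dim probe set, at -0.29. Another 4 probe sets that name Dnajb6 with a further gene gave 0.32 to 0.35. A link between element and difference was not tested. Within the inducible class, the 7 with the element had a median of 0.99, and Dnajb1, without one, was at 1.57. The largest negative values of the mitochondrial class were those of Dnajc30, at 6.40 and 6.09, and Dnajc15, a J protein of the inner membrane, at 7.004 and 6.71.

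The inducible cytosolic median exceeded the median of the 22 ER and mitochondrial members by 0.81 on the log2 scale. Of the 9 inducible members, 7 lay above the highest ER or mitochondrial value, the 0.55 of Dnajc10, and Dnaja1 and Dnajb4 lay within its range. This gap ranged from 0.75 to 1.17 over the alternative settings. Centring the arrays added 0.13 to the median of all compared genes; measured from that median, the inducible median was 0.92 higher as deposited and 0.91 on centred arrays, 0.85 on quantile-normalized values and 0.81 with the loess trend removed.

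**Figure D3:**
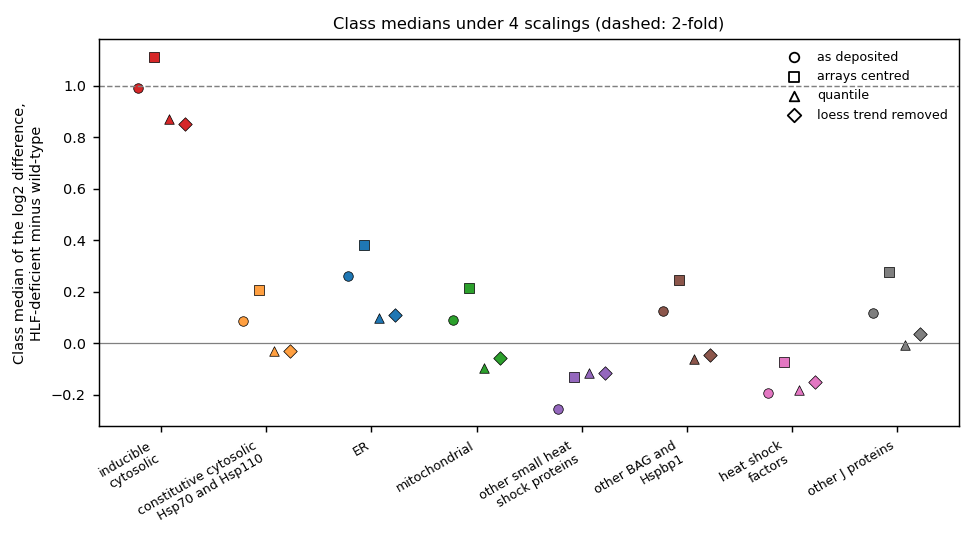
Class medians of the log2 difference (HLF-deficient minus wild-type) for values as deposited, with arrays centred, after quantile normalization and after removal of a loess trend. The inducible cytosolic class stayed between 0.85 and 1.11, the ER median stayed above 0, and the mitochondrial median changed sign.

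Constitutive cytosolic chaperones of the Hsp70 and Hsp110 families were split. Hspa4l, an Hsp110-type protein, was highest at 6.56 and 7.25, or 1.62-fold, and its relative Hspa4 was nearly level at 7.93 and 8.02. Hspa8 (Hsc70), the housekeeping Hsp70 of the cytosol, was at 10.57 in the wild-type tumour against 10.99 in the HLF-deficient one, 1.34-fold higher, and its 3 probe sets gave differences from 0.29 to 0.42. Hspa14, a ribosome-associated Hsp70, differed by 0.20 and Hspa2, an Hsp70 of the testis, by -0.08. Hspa12a and Hspa12b, distant Hsp70 relatives, were lowest at -0.40 and -0.38. The median of the 7 compared members was 0.08 as deposited and -0.03 after quantile or loess normalization.

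Small heat shock proteins other than Hspb1 and Hspb8 had mostly negative differences. At 1.5-fold 0 passed, a count near the all-gene shares of 6.37% higher and 3.11% lower. The negative members were dim, between 3.21 and 4.28 in the wild-type tumour. Of 6 members 4 were negative under each scaling and 1, Hspb6 (Hsp20), was positive, at 5.47 and 5.78; the median was -0.25 as deposited and -0.12 after quantile normalization. Hspb2, a muscle form, was lowest at 4.28 and 3.74. Hspb3 and Hspb7, also forms of muscle, did not reach the floor on the HLF-deficient array, which bounds their decrease at 1.40-fold or more and 1.18-fold or more. Hspb9, a form of the testis, differed by -0.25, and Hspb11, a ciliary transport protein, had the same value of 3.77 on both arrays.

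Markers of muscle were also slightly lower in the deposited values. The testis germ cell and neutrophil lists had lower medians, -0.51 over 3 compared genes and -0.38 over 4. Of 12 skeletal and heart muscle genes 11 reached the floor, 0 passed 2-fold, and their median difference was -0.20 as deposited, -0.08 on centred arrays, -0.07 on quantile-normalized values and -0.06 with the loess trend removed; their summed linear signal was 175 in the wild-type tumour against 143 in the HLF-deficient one, with Myh1 below the floor on both arrays. Of all compared genes 1.5% were higher by 2-fold and 0.364% lower. The part of the muscle genes in the result was not tested.

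The BAG proteins and Hspbp1, most of which promote the release of nucleotide from Hsp70, were close to level apart from Bag3. Bag4 was highest at 5.31 and 5.56 and Bag1 lowest at 6.79 and 6.61. Bag5, Bag6 and Hspbp1 differed by 0.13, 0.12 and 0.03, and Bag6 and Hspbp1 changed sign under other scalings. Bag2 was below the floor in both tumours.

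The measured heat shock factors differed little between the tumours. Hsf2, a factor that can pair with HSF1, was at 6.21 in the wild-type tumour against 6.23 in the HLF-deficient one. Hsf4, best known from the lens, was at 4.89 and 4.69, and Hsf2bp, a partner of HSF2 with a role in meiosis, at 3.65 and 3.37. Hsf3 and Hsf5 were below the floor, and the activity of HSF1 is not read by an expression array.

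Among the other J proteins, 1 of 21 compared members passed 2-fold, where 1.5% of all compared genes were higher and 0.364% lower. Dnajc12, a co-chaperone of phenylalanine hydroxylase and related enzymes, was at 5.97 in the wild-type tumour against 7.22 in the HLF-deficient one, or 2.38-fold, and ranked 116th from the top of all compared genes. The next highest were Dnajc9, a histone chaperone, at 4.43 and 4.83, and Dnajc13, an endosomal J protein, at 6.57 and 6.94. Dnajc13 had 15 probe sets, and their differences ran from 0.13 to 0.71 with a median of 0.41, all of 1 sign.

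The other end of the J proteins held small values. Dnajb8, a form of the testis, was at 3.01 in the wild-type tumour and did not reach the floor on the other array, which bounds its decrease at 1.02-fold or more, and Dnajc24, which takes part in diphthamide synthesis, was at 5.51 and 5.21. The class median was 0.12 as deposited and -0.01 after quantile normalization.

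**Figure D4:**
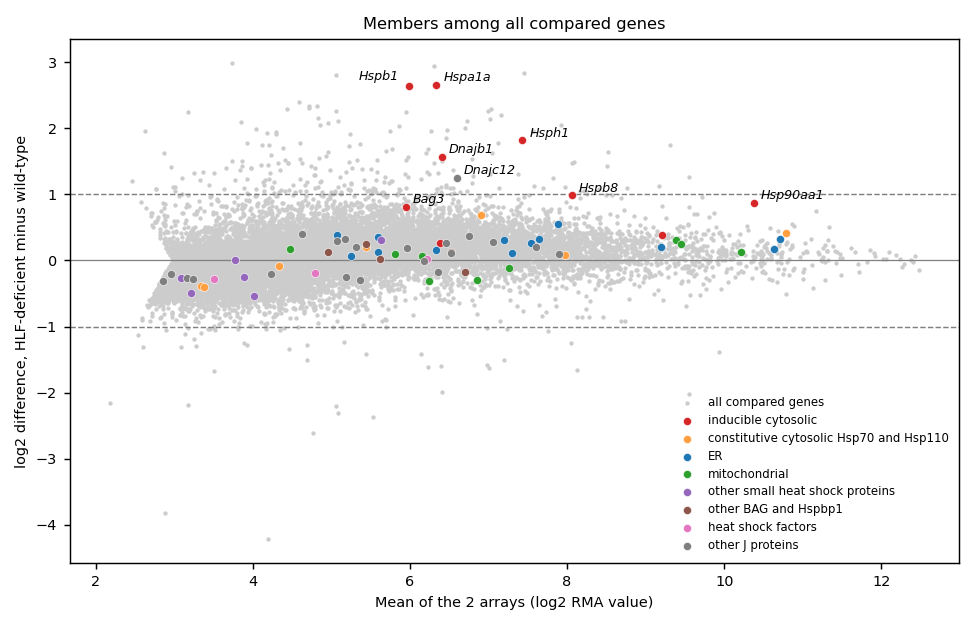
Log2 difference (HLF-deficient minus wild-type) against the mean log2 RMA level of the 2 arrays for all 14575 compared genes (grey) and the 73 compared members (coloured by class), with 2-fold as dashed lines. Hspa1a and Hspb1 lie near the top of all genes, and most ER and mitochondrial members lie inside the grey band.

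Chaperone genes outside the naming pattern were read from lists that were drawn up with earlier results known. Of 18 co-chaperones of Hsp90 and Hsp70, 0 passed 2-fold in either direction. Of all compared genes 1.5% were higher by that rule and 0.364% lower, so a 0 in so short a list is near those shares. The median of the co-chaperones was 0.32 as deposited, 0.17 after quantile normalization and 0.18 after loess. The highest were Cacybp, at 7.03 in the wild-type tumour against 7.76 in the HLF-deficient one, and Sugt1, an Hsp90 co-chaperone, at 6.22 and 6.90. Fkbp4, a co-chaperone of steroid receptors, was lowest at 7.68 and 7.58, and Ttc4 differed by -0.05.

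The chaperonin TRiC and prefoldin, which fold actin and tubulin, had 0 of 14 genes past 2-fold and a median of 0.28, or 0.13 after quantile normalization. This 0 and those of the next lists are likewise near the all-gene shares of 1.5% higher and 0.364% lower. Tcp1, a TRiC subunit, and Vbp1, a prefoldin subunit, were highest at 0.57 and 0.52, and the prefoldin subunits Pfdn4 and Pfdn1 lowest at -0.30 and -0.26. Among 15 ER folding factors 0 passed 2-fold and the median was 0.14, or 0.01 after quantile normalization, with Creld2 and Xbp1 at 0.53 and 0.44 and Sec61b and Manf at -0.29 and -0.06. Mitochondrial folding and protease factors had 0 of 9 past 2-fold and a median of 0.27, or 0.08 after quantile normalization, with the exchange factor Grpel2 at 0.58, the protease Yme1l1 at 0.42, Clpx at 0.06 and Grpel1 at -0.13.

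Regulators of HSF1 had 1 of 5 compared genes past 2-fold, where 1.5% of all compared genes were higher and 0.364% lower. This was the deacetylase Sirt1, at 4.47 and 5.51. It passed 2-fold as deposited and with the arrays centred, and was under it after quantile or loess normalization. Hsbp1, an inhibitor of HSF1, was at 7.92 and 8.19, and Vcp and Hdac6 differed by 0.10 and -0.06.

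Of 8 other genes listed as candidate targets of heat shock factors, 3 were higher by 2-fold, where 1.5% of all compared genes were. These were Rgs2, at 3.25 and 4.99, Hmox1, at 5.70 and 7.03, and Gadd45b, at 4.67 and 5.75. Hmox1 and Gadd45b are also known targets of other stress pathways. Cryab, a small heat shock protein and the neighbour of Hspb2, was at 3.62 and 3.44, and Ier5l was lowest at -0.30. After quantile or loess normalization 2 of the 8 passed.

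**Figure D5:**
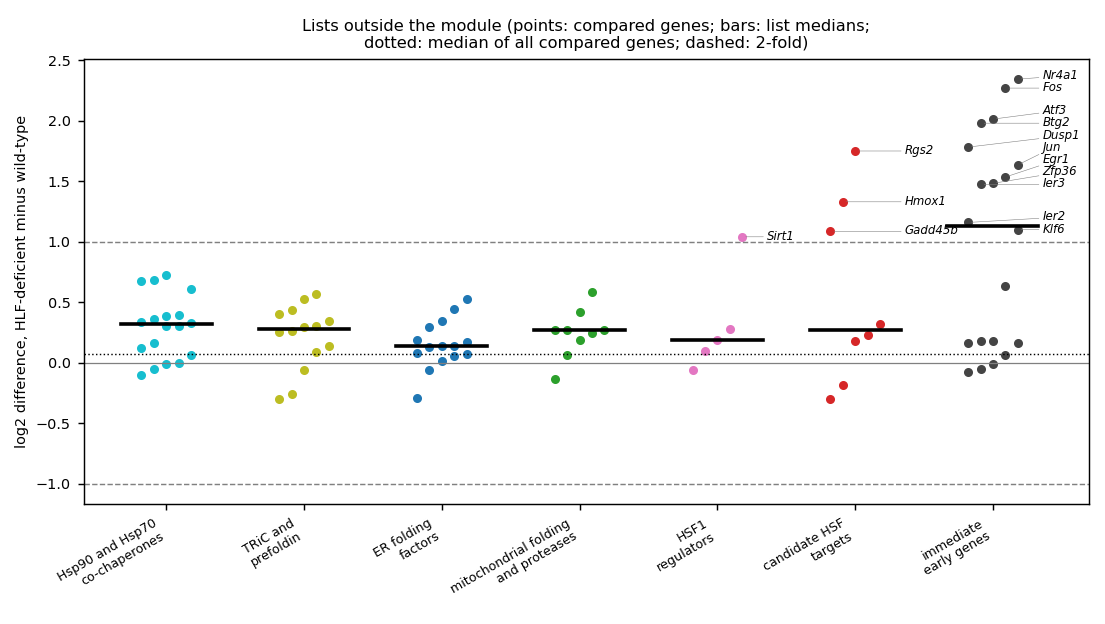
Differences on the log2 scale, HLF-deficient minus wild-type, for the compared genes of 7 lists outside the naming pattern; points are genes, bars list medians, the dotted line the median of all compared genes (0.07) and dashed lines 2-fold. The immediate early list has a median of 1.13, and the chaperone lists have medians between 0.14 and 0.32.

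Immediate early genes, which are switched on within minutes of many stimuli, were higher on the same array as the inducible chaperones. Of 20, 11 were higher by 2-fold, where 1.5% of all compared genes were, and 0 lower, where 0.364% were. Their median was 1.13, or 0.98 after quantile normalization, beside 0.07 over all compared genes as deposited. The summed linear signal of the list was 787 in the wild-type tumour against 1900 in the HLF-deficient one. Nr4a1 and Fos had the largest differences, 2.34 and 2.27, Jun was at 6.23 and 7.86, and Fosl2 and Egr2 were lowest at -0.07 and -0.05. Their part in the chaperone differences was not tested.

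Marker lists of endothelial cells, of macrophages and of stellate cells and fibroblasts had positive medians in the deposited values. Neutrophil, cholangiocyte and T and NK cell markers had negative medians of -0.38, -0.12 and -0.05. B and plasma cell markers were level at 0.01. Beside the counts that follow, 1.5% of all compared genes were higher by 2-fold and 0.364% lower. Endothelial markers had 1 of 10 past 2-fold, a median of 0.66 and summed linear signals of 645 and 993, and macrophage markers had 2 of 10, Cd14 and Cd68, a median of 0.29 and sums of 576 and 793. Among the genes of resident Kupffer cells in that list, Clec4f and Vsig4 differed by -0.37 and -0.36, and Marco and Timd4 by 0.12 and 0.01. Markers of stellate cells and fibroblasts had 0 of 10 and a median of 0.23. After quantile normalization and after loess the endothelial median was 0.46 and 0.49, the macrophage median 0.10 and 0.13, and the stellate and fibroblast median 0.08 and 0.11. In whole tumour RNA a change in the number of cells of a type and a change in RNA per cell cannot be told apart, and the part of these cells in the chaperone values was not tested.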

How the data were processed

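Total RNA of wild-type and of HLF-deficient tumour tissue, 1 array each, was labelled as biotinylated cDNA for Affymetrix arrays, per the labels' protocols. The deposited log2 values were made by the authors with RMA in Affymetrix Expression Console, per the submitters' processing notes; the log2 scale was inferred from the values. The sources used here do not say which arrays shared a normalization. RMA compresses differences near background.

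Of 35556 probe sets, 21789 named exactly 1 gene in the platform annotation, 1621 several and 12146 none; only the first kind was used. Symbols of all 82 members matched a RefSeq table of assembly GRCm38.p6 by gene identifier. A gene was compared when at least 1 array reached the floor, and called at a log2 difference of 1 or more in size. Where 1 array lay below the floor, the floor took its place and the fold is a bound. Precision is limited by there being 1 array a genotype; the spread of differences between the 2 brightest distinct probe sets of 683 genes gave an SD of 0.23 per probe set, which does not cover mice or tumours.

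The members and lists were chosen with earlier results of these data known. Genes named are all inducible cytosolic, BAG and heat shock factor members, the main Hsp70, Hsp90 and Hsp60 genes, members past 2-fold, the 2 highest and lowest of each class and of each pathway list outside the naming pattern, and those next to the threshold; others (Cd14, Cd68, Clec4f, Vsig4, Marco, Timd4, Mir207, Alb, Myh1, Hspa14, Hspa2, Hspa4, Hspb7, Hspb9, Dnajb9, Dnajc3, Dnajc13, Dnajb6, Gadd45b and genes named as below the floor or for a promoter) were added after their values were seen. The lists of B and plasma cell, T and NK cell, neutrophil, cholangiocyte and testis germ cell markers had medians of 0.01, -0.05, -0.38, -0.12 and -0.51. Alternatives were 3 other scalings, other summaries per gene, other floors and other rules of size. The procedure was tested on simulated data with less noise than the spread between probe sets given above. That test does not show how many calls here are false. Python 3.11.15, pandas 2.3.3 and statsmodels 0.14.6 were used.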

Additional observations from a re-analysis of the deposited data

Results flagged for a closer look

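A probe set that names both Hspa1a and Hspa1b, and so entered no comparison, was at 6.33 in the wild-type tumour against 9.35 in the HLF-deficient one. The difference of 3.02, or 8.11-fold, is a signal above the wild-type level in data that the comparisons did not use. It has the same direction as the Hspa1a probe set (2.66) and cannot be assigned to either copy. It was 1 of 10 probe sets that name a member together with another gene, and the only one of them past 2-fold.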

How the results depend on the processing

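The count of 5 members higher by 2-fold was 9 at a rule of 1.5-fold and 2 at a rule of 4-fold, by construction of those rules, and between 5 and 6 under the scalings, summaries per gene and floors tried; the sixth was Hspb8, at 1.11 with the arrays centred. The count of lower members was 0 under each. The gap between the inducible median and the ER and mitochondrial median was 0.81, and 1.17 with class means, in which Hspa1a and Hspb1 weigh more. The medians of all members, inducible, ER and mitochondrial members lay within 0.06 to 0.29, 0.85 to 1.11, 0.10 to 0.38 and -0.10 to 0.21; the mitochondrial one changed sign, to -0.10 on quantile-normalized values and -0.06 with the loess trend removed, and the cause was not tested. An alternative with Hspa1b could not be run, since no probe set named it alone. No paired analysis was possible because each genotype had 1 array. Weak signal limits genes near the floor: with values set to the floor, Dnajb8 was at -0.03 and Hsf3 at 0.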

Other observations

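Dnajb6, a J protein that holds back protein aggregation, gave readings of opposite sign. The probe set that names it alone was dim, at 3.38 in the wild-type tumour against 3.10 in the HLF-deficient one. Another 4 probe sets that name it together with the gene model Gm4247 were brighter and had differences between 0.32 and 0.35. Its 2 promoter windows hold a 3-unit heat shock element, as those of Hspd1 and Hspe1 do.

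The value of Hspb11 was identical on both arrays, as were those of 261 of the 35556 probe sets. Dnajc3 had 2 probe sets with identical values on each array, so they count as 1 reading.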
